A study of Homo sapiens with 9 samples.

Results

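The genes described here handle organic osmolytes, choline and trimethylamine in cells, and 10 of them were followed in the human microvascular endothelial line HMEC-1: NFAT5, SLC6A6, SLC5A3, SLC6A12, SLC44A1, CHKA, PEMT, CHDH, FMO4 and FMO5. They were picked by name for their relation to trimethylamine N-oxide (TMAO), which is both an osmolyte and a metabolite, and all 10 are among the 29740 gene symbols of the count table. HMEC-1 is an immortalised line from human dermal microvessels, so every value below comes from 1 cell line. RNA was sequenced from 3 libraries of untreated cells (CTRL), 3 libraries of cells given 50 µM TMAO for 24H and 3 libraries of cells given 50 µM TMAO for 48H, with the medium kept low in serum during treatment. Controls of both time-points form a single group in the study, and how long each was cultured is not given, so the length of TMAO treatment cannot be told apart from the time in culture. The labels number the libraries of each group from 1 to 3 without saying whether they came from separate cultures. The study's methods speak of independent experiments for its data in general, in a passage that names other assays but not the sequencing libraries, so the p-values below measure the spread between these libraries, whether it is biological or technical.

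Cells keep their volume by holding small organic solutes, and animals use taurine, myo-inositol, betaine and glycerophosphocholine for this purpose. NFAT5 is the transcription factor that raises the genes for uptake of these solutes when the surroundings become hypertonic, through DNA elements called TonE. Choline enters cells through SLC44A1, is phosphorylated by CHKA on its way to phosphatidylcholine, and is oxidised to betaine by the mitochondrial enzyme CHDH, while PEMT makes phosphatidylcholine by methylating phosphatidylethanolamine. In the body, gut bacteria release trimethylamine from choline, and it is oxidised to TMAO mainly in the liver.

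Of these genes, SLC6A6, which encodes the taurine transporter, was the member that changed. After 48H of TMAO it fell to 0.652 of the CTRL level, and it was also lower after 48H than after 24H. No member passed the test after 24H. NFAT5, the myo-inositol transporter gene SLC5A3 and the choline genes SLC44A1, CHKA and PEMT had intervals that lay within a 1.4-fold change in every comparison. CHDH, FMO4 and FMO5 were low, and in every comparison their intervals reached beyond 1.4-fold upward, downward or both. SLC6A12, which encodes the betaine transporter, was close to absent from the libraries.

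Counts were tested with edgeR's quasi-likelihood test, fitted to all 9 libraries over the 14740 genes that passed a filter on low counts, and a gene passed where its Benjamini-Hochberg adjusted p was under 0.05. A normalised count is a gene's estimated read count scaled to a common library of 30416647 reads. Of the 10 members, 9 were tested and SLC6A12 was left out by the filter. After 24H of TMAO against CTRL, 0 of the 9 passed by edgeR and by DESeq2, and 0 had an unadjusted p under 0.05, against 0.095% and 7.24% of all genes tested, and 0 had groups without overlap, against 14.2%. DESeq2 gave FMO4 and FMO5 no adjusted p in this comparison. After 48H against CTRL, 1 of the 9 passed, and it was lower, while 10.4% of all genes passed and 5.29% were lower. For 48H against 24H, 1 of the 9 passed, again lower, while 7.52% of all genes passed and 3.76% were lower. The counts of 1 in 9 are therefore close to the share of genes that moved in the whole transcriptome. With the study's additional demand of a 1.4-fold change the members gave the same counts of 0, 1 and 1, against 0.0475%, 1.8% and 1.7% of all genes. The median log2 fold change of the 9 members was -0.012 after 24H and -0.022 after 48H against CTRL, beside -0.00042 and 0.0040 over all genes tested.

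**Figure D1:**
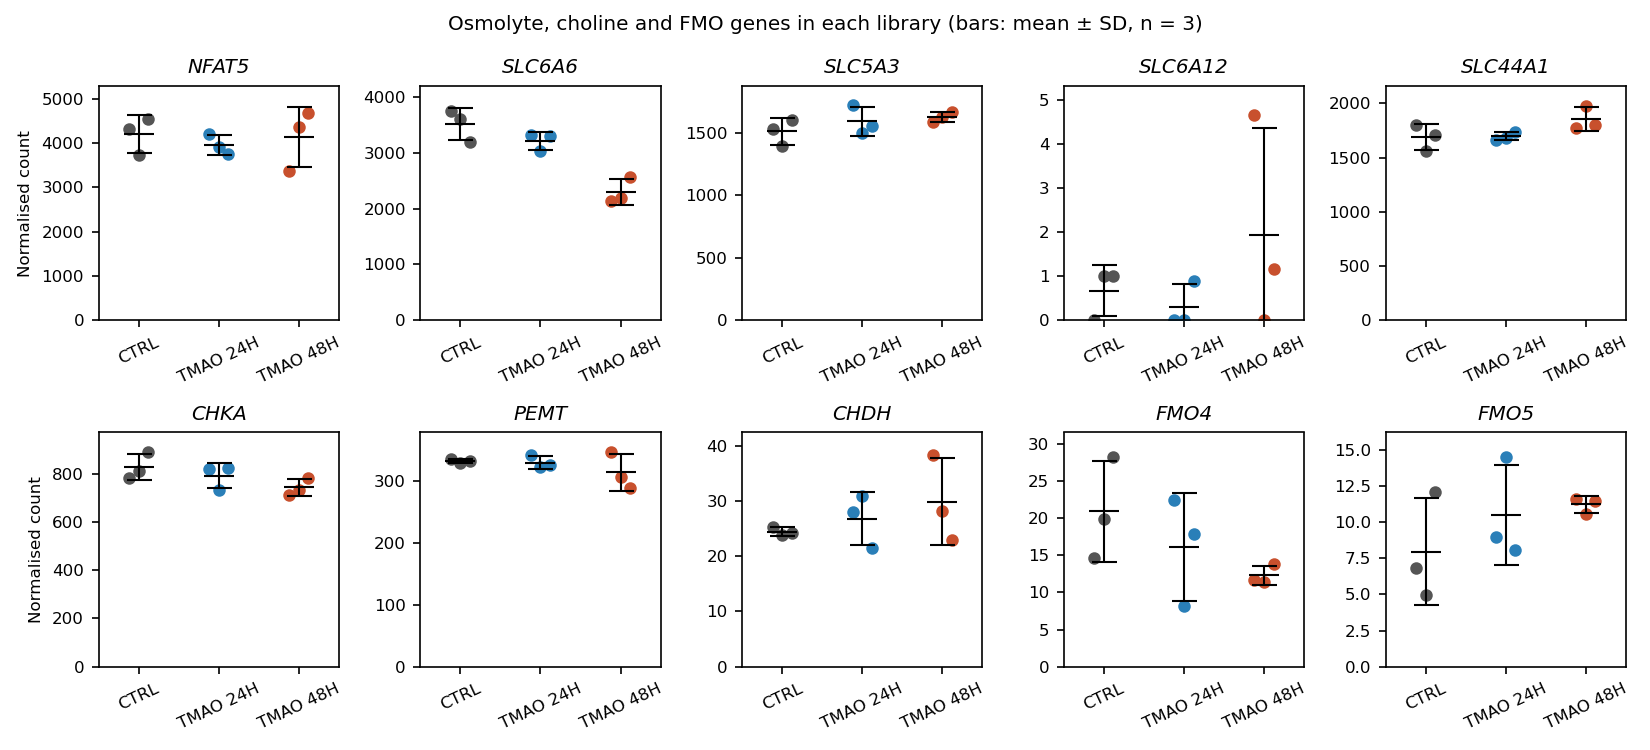
Normalised counts (vertical axes, starting at 0) of the 10 members in each CTRL, TMAO 24H and TMAO 48H library, with each point a library and bars for the mean ± SD of 3 libraries. The SLC6A6 points at 48H lie between 2131 and 2566, below all other libraries, while the NFAT5 groups overlap. For SLC6A12 the SD is larger than the mean at 24H and at 48H, and the lower bars there are drawn to 0.

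The libraries differed in some ways that bear on these values. Total counts ran from 25205756 to 36927373 per library. Ribosomal RNA genes took 31.5% of the counts in TMAO 24H replicate 1 and 1.64% to 7.46% in the other 8 libraries. TMAO 48H replicate 3 stood apart in epidermal genes, with 125 normalised counts of KRT5 against 763 to 1630 in the other 8 libraries. All 12 endothelial markers checked were detected in every group, with summed levels of 78970 to 87670 normalised counts in CTRL, 79310 to 83250 at 24H and 69560 to 75020 at 48H. Hepatocyte markers, which matter because the liver is where TMAO is mainly made, summed to at most 62.3 normalised counts in any library, most of it SERPINA1, with APOB and TTR at 0 counts.

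The levels of the members relative to each other were compared per length, as library-scaled counts (CPM) per kilobase of the longest protein-coding transcript in the GENCODE 29 annotation. Which transcripts were expressed was not measured, so the order depends on that length, and the SD covers the spread between libraries only. By normalised counts alone, NFAT5 had a higher CTRL mean than SLC6A6, 4198 against 3520. In CTRL, SLC6A6 was highest at 17.7 ± 1.42 CPM per kilobase (SD, n = 3). CHKA at 10.8 ± 0.718, PEMT at 10.4 ± 0.115 and NFAT5 at 10.3 ± 1.05 followed, and these 3 did not differ beyond their spread. SLC44A1 at 5.28 ± 0.385 and SLC5A3 at 4.30 ± 0.300 came next without overlap of their libraries. The remaining genes were far lower, with FMO4 at 0.305 ± 0.100, CHDH at 0.105 ± 0.00321, FMO5 at 0.0994 ± 0.0461 and SLC6A12 at 0.00659 ± 0.00571 CPM per kilobase. CHDH and FMO5 did not differ beyond their spread. The members thus fell into 6 genes with means of at least 332 normalised counts in CTRL and 4 genes with means of at most 24.5.

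**Figure D2:**
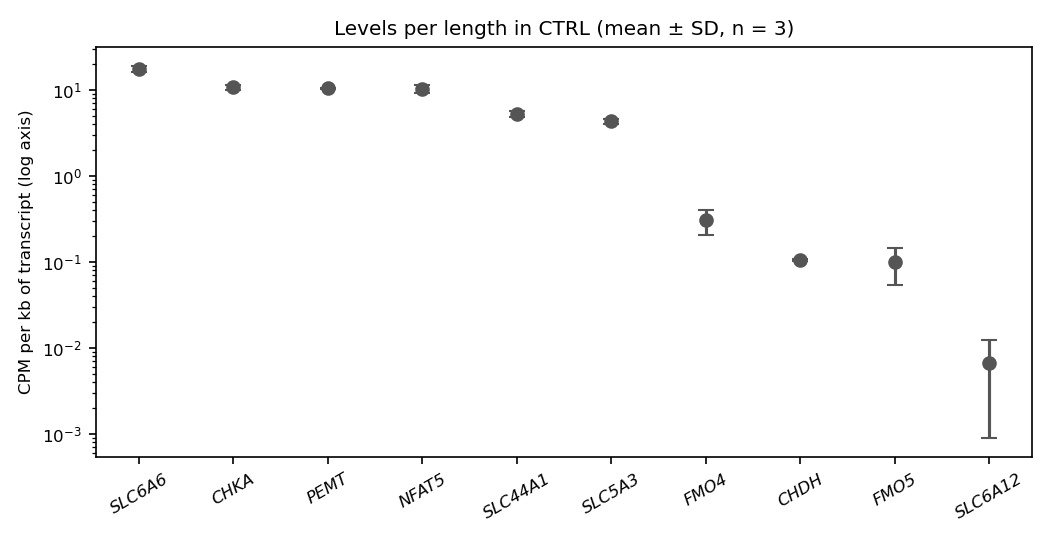
Level per length of each member in CTRL, in CPM per kilobase of transcript on a log axis, with points for the mean and bars for the SD of 3 libraries. SLC6A6 stands at 17.7 and the step from SLC5A3 at 4.30 to FMO4 at 0.305 parts the well expressed members from the low ones.

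Promoter sequences of 4 members are shown here, SLC5A3 because it does not have its promoter to itself, and CHDH, FMO4 and FMO5 because their windows differ widely in base composition although all 3 genes are low. RefSeq promoter windows, from 250 bases before to 50 after the annotated start on GRCh38.p14, were found for 6 of the 10 members. In the windows below, each read 5′ to 3′ on the gene's own strand, capitals mark CpG dinucleotides. The SLC5A3 window is at chr21:34073328-34073627 on the plus strand, has 82% GC and holds 51 CpG. It is the same 300 bases as the window listed for MRPS6, a mitochondrial ribosomal protein gene, with both starts at the same base. The CHDH window, at chr3:53846370-53846669 on the minus strand, has 75.7% GC and 38 CpG. The FMO4 window is at chr1:171313933-171314232 on the plus strand with 46% GC and 9 CpG, and the FMO5 window is at chr1:147225290-147225589 on the minus strand with 52% GC and 11 CpG. The median over 35116 promoter windows was 58.7% GC and 14 CpG.
SLC5A3 and MRPS6: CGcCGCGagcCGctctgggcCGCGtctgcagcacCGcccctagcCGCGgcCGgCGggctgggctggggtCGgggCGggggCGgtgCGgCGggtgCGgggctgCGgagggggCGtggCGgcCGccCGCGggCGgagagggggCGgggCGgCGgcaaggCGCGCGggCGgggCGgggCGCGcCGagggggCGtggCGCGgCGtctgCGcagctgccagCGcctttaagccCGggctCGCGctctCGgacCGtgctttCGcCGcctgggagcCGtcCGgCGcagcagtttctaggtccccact
CHDH: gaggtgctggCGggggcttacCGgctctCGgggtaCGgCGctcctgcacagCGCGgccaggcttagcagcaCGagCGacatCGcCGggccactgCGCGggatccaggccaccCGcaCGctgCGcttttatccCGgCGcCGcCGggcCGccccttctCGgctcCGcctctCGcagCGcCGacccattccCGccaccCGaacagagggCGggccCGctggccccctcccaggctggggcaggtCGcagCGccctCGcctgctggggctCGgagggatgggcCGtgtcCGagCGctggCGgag
FMO4: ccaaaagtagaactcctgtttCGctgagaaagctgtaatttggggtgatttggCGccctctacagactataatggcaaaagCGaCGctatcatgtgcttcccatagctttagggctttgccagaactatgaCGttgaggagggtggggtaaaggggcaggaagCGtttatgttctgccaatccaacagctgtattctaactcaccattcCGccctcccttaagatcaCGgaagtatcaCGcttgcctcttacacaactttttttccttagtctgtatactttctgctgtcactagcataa
FMO5: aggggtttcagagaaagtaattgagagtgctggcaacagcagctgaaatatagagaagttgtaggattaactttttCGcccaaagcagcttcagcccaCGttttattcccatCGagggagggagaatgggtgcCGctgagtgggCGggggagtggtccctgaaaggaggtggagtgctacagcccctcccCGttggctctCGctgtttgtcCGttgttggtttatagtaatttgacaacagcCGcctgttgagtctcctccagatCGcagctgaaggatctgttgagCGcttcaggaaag

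The SLC5A3 and CHDH windows are dense in CpG, and the windows of both FMO genes are below the median of all promoters. SLC44A1, not printed, had 78.3% GC and 40 CpG, and the 3 windows listed for PEMT held 29, 6 and 17 CpG. The core letters of the TonE element, TGGAAA, searched on both strands, were in 0 of the 8 windows of these 6 members and in 20.7% of all promoter windows. The longer TonE consensus, which contains that core, was in 0 of them and in 4.92% of all windows. NFAT5, SLC6A6, SLC6A12 and CHKA had no window and were not searched, and neither was sequence outside the windows. With only 8 windows, 3 of them of PEMT, these counts cannot decide whether the genes have TonE elements.

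NFAT5 was followed first as the regulator of the osmolyte genes. Its normalised counts were 4320, 3723 and 4551 in CTRL, 4207, 3921 and 3744 after 24H, and 3361, 4373 and 4673 after 48H. All 3 groups overlapped, and TMAO 48H replicate 1 held the lowest value of the 9. The log2 fold change against CTRL was -0.085 ± 0.101 (SE) after 24H, with an edgeR adjusted p of 0.927. It was -0.022 ± 0.101 after 48H, with an edgeR adjusted p of 0.922 and a 95% interval of the fold change from 0.847 to 1.15. These are transcript levels, and NFAT5 is also controlled by its entry into the nucleus, which was not measured here.

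SLC6A6 brings taurine into cells together with sodium and chloride and is among the known NFAT5 targets. Its normalised counts were 3751, 3605 and 3205 in CTRL, 3322, 3036 and 3296 after 24H, and 2131, 2188 and 2566 after 48H. The CTRL and 24H libraries overlapped, while every 48H library lay below all 6 others. After 24H the log2 fold change was -0.13 ± 0.0723 (SE), with an unadjusted p of 0.0962 and an adjusted p of 0.776 from edgeR. After 48H it was -0.62 ± 0.0726, a fold change of 0.652 with a 95% interval from 0.585 to 0.727 and an edgeR adjusted p of 0.000231. Ordered by p, SLC6A6 was number 66 of the 14740 genes in that comparison. Against 24H directly, the 48H level was 0.713-fold, with an interval from 0.640 to 0.795 and an edgeR adjusted p of 0.000960. The difference between the 2 time-points was therefore itself larger than the spread between libraries.

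The fall was also seen without the libraries that stood apart. Without TMAO 48H replicate 3 the log2 fold change was -0.70 against CTRL and -0.57 against 24H. Without TMAO 24H replicate 1 the value against 24H was -0.47, with an edgeR adjusted p of 0.00373. In all 18 alternative analyses SLC6A6 passed at 48H against CTRL, with log2 fold changes from -0.70 to -0.57. Fewer cells of a type and less RNA per cell cannot be told apart in bulk RNA. The endothelial marker sum was lower in every 48H library than in every other library, as given above. Of its 12 genes, 7 passed the test as lower at 48H against CTRL, beside 5.29% of all genes. The median log2 fold change over the 12 was -0.21. VWF, ESAM and EMCN had 48H means above CTRL and did not pass. For 48H against 24H, VWF passed as higher, with a log2 fold change of 0.51 and an edgeR adjusted p of 0.00112. In that comparison 6 of the 12 passed as lower, beside 3.76% of all genes. The 10 fibroblast and mural markers summed to 31060 to 35920 normalised counts in CTRL, 31310 to 33760 at 24H and 20620 to 22620 at 48H, mostly COL1A1 and COL1A2. Of the 8 tested, COL1A1 and COL1A2 passed as lower at 48H against CTRL and ACTA2, smooth muscle actin, passed as higher. Over all genes tested, 10.4% passed and 5.29% were lower. ACTA2 went from a mean of 126 to 211 normalised counts with an edgeR adjusted p of 0.00194. COL3A1, PDGFRB and CSPG4, with CTRL means of 1023, 1461 and 1703, did not pass, and LUM and DCN had 1 and 2 counts over all libraries. The part of these shifts in the SLC6A6 result was not tested. An antisense gene, GRIP2, shares 239 exonic bases with SLC6A6 and had 12.9 to 45.8 normalised counts in the 9 libraries, where SLC6A6 had at least 2131. Whether the counting kept strands apart is not given in the sources used here.

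Among the 3 genes whose profiles over the 9 libraries were nearest to that of SLC6A6 were COL1A1 and UNC5B. Nearness was the mean absolute difference in log2 CPM after each gene was centred on its own mean, and it was 0.0435 for COL1A1 and 0.0575 for UNC5B, where the median over all genes tested was 0.266. COL1A1 encodes a chain of type I collagen, and UNC5B encodes a netrin receptor of endothelial cells. COL1A1 had 21760, 21110 and 19010 normalised counts in CTRL, 19310, 18890 and 20360 after 24H and 12290, 12940 and 13560 after 48H. As with SLC6A6, its 48H libraries lay below all others. Because these genes were selected for their likeness, their log2 fold changes of -0.67 and -0.53 after 48H are given as a description.

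SLC5A3 carries myo-inositol into cells with sodium. Its normalised counts were 1534, 1400 and 1608 in CTRL, 1723, 1502 and 1556 after 24H, and 1588, 1628 and 1670 after 48H, with overlap among all groups. The log2 fold change was 0.074 ± 0.0613 (SE) after 24H and 0.11 ± 0.0613 after 48H against CTRL, with edgeR adjusted p of 0.876 and 0.303. At 48H the 95% interval of the fold change ran from 0.982 to 1.18. SLC5A3 and MRPS6 share 273 exonic bases on the same strand in GENCODE 29 besides the promoter printed above, so reads there cannot be assigned to either with certainty. MRPS6 had 600 to 675 normalised counts in CTRL and a log2 fold change of -0.10 after 48H with an edgeR adjusted p of 0.443. With the counts of both genes summed, the log2 change was 0.047 at 48H, with an edgeR adjusted p of 0.610.

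SLC6A12, also called BGT1, takes up betaine and GABA and is the best known NFAT5 target in kidney cells. It had 0, 1 and 1 estimated counts in CTRL, 0, 0 and 1 after 24H, and 4, 0 and 1 after 48H. The 8 counts over all 9 libraries allow no comparison. For scale, 3 counts, the upper limit that a count of 0 allows, correspond to 0.0812 to 0.119 CPM in these libraries, and that limit covers counting error only.

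**Figure D3:**
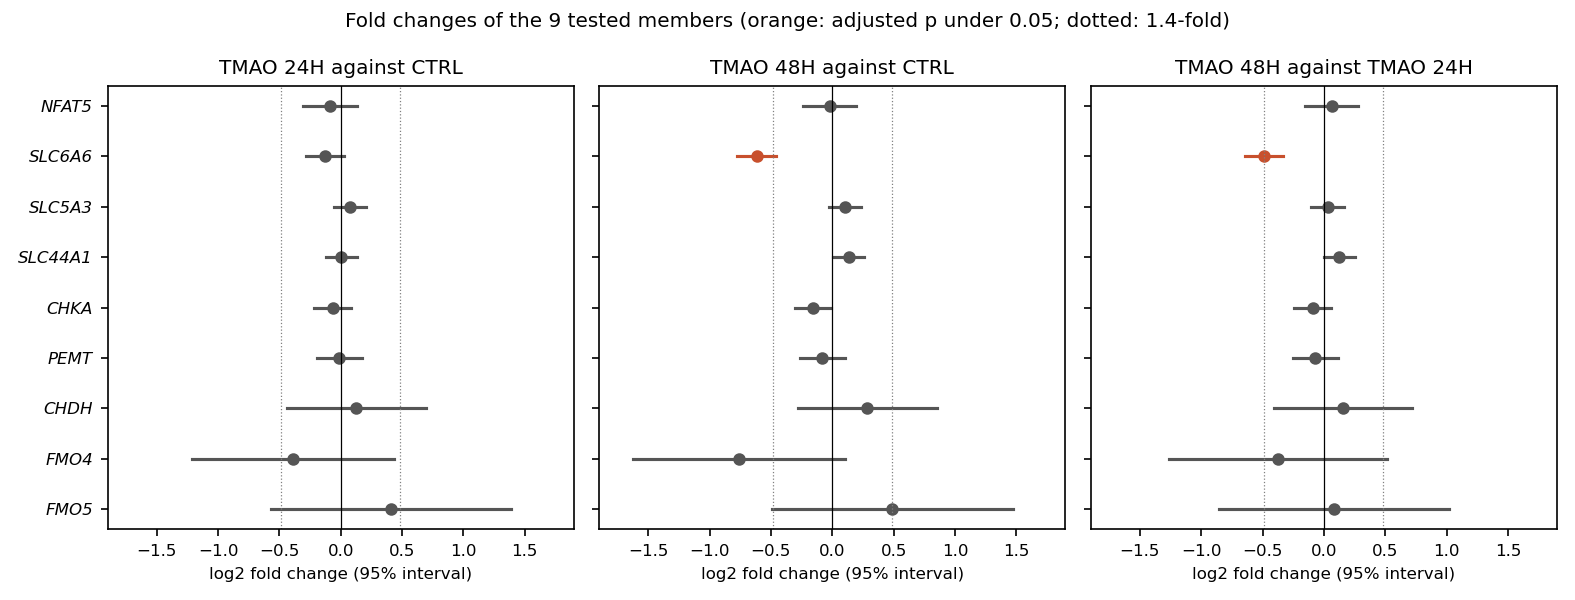
Log2 fold change (horizontal axes) of the 9 tested members for TMAO 24H against CTRL, TMAO 48H against CTRL and TMAO 48H against TMAO 24H, with bars for the 95% interval and dotted lines at 1.4-fold. SLC6A6 at -0.62 and -0.49 is the member in orange, which marks an adjusted p under 0.05, and the bars of CHDH, FMO4 and FMO5 are the widest.

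SLC44A1 is a choline transporter of the plasma and mitochondrial membranes. Its normalised counts were 1801, 1557 and 1710 in CTRL, 1666, 1685 and 1737 after 24H, and 1777, 1979 and 1799 after 48H. The 48H libraries lay above the 24H libraries and overlapped CTRL. Its log2 fold change was 0.0058 ± 0.0584 (SE) after 24H and 0.13 ± 0.0584 after 48H against CTRL. The latter had an unadjusted p of 0.0406 and an adjusted p of 0.172 from edgeR, and its 95% interval in fold was 1.01 to 1.20. Against 24H the edgeR adjusted p was 0.223, in a comparison where 22.1% of all genes had an unadjusted p under 0.05 and 27.6% did not overlap.

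CHKA, choline kinase alpha, catalyses the first step of the route from choline to phosphatidylcholine. It had 784, 813 and 891 normalised counts in CTRL, 819, 733 and 825 after 24H, and 714, 733 and 785 after 48H. The groups overlapped, though the 48H mean of 744 was under the CTRL mean of 829. The log2 fold change at 48H was -0.16 ± 0.0688 (SE), with an unadjusted p of 0.0398, an edgeR adjusted p of 0.170 and a 95% interval in fold of 0.809 to 0.994. At 24H it was -0.066 ± 0.0688, with an edgeR adjusted p of 0.913. SLC6A6, SLC44A1 and CHKA were the 3 members with an unadjusted p under 0.05 at 48H against CTRL, where 25.8% of all genes had one.

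PEMT had 336, 329 and 333 normalised counts in CTRL, 342, 322 and 325 after 24H, and 347, 307 and 288 after 48H. CTRL was tight and the 48H libraries spread to both sides of it. The log2 fold change was -0.012 ± 0.0849 (SE) at 24H and -0.083 ± 0.0851 at 48H, with edgeR adjusted p of 0.991 and 0.587. Its 95% interval in fold at 48H was 0.831 to 1.07.

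CHDH, choline dehydrogenase, oxidises choline in mitochondria. It had 25.3, 23.9 and 24.2 normalised counts in CTRL, 28.0, 30.8 and 21.5 after 24H, and 38.4, 28.2 and 23.0 after 48H. The treated libraries spread more widely than CTRL and overlapped it. The log2 fold change at 48H was 0.28 ± 0.263 (SE), with an edgeR adjusted p of 0.542 and a 95% interval in fold from 0.822 to 1.80, so a rise of more than 1.4-fold could not be seen or set aside at this depth. CHDH shares 1399 exonic bases with the antisense gene CACNA1D, which had 0 or 1 counts in each library.

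FMO4 and FMO5 belong to the flavin-containing monooxygenases, which oxidise nitrogen and sulphur in drugs and metabolites, although FMO5 mostly acts as an oxygen-inserting enzyme on carbonyl compounds. FMO4 had 14.6, 19.9 and 28.2 normalised counts in CTRL, 22.4, 8.16 and 17.9 after 24H, and 11.6, 11.4 and 13.8 after 48H. The 3 libraries at 48H lay below the 3 CTRL libraries, but not below those at 24H. The log2 fold change at 48H was -0.76 ± 0.400 (SE), with an edgeR adjusted p of 0.252 and a 95% interval in fold from 0.324 to 1.07. FMO4 and SLC6A6 were the 2 members whose 48H and CTRL libraries did not overlap, a separation seen in 27.8% of all genes tested. FMO5 had 6.81, 4.98 and 12.1 normalised counts in CTRL, 8.96, 14.5 and 8.06 after 24H, and 11.6, 10.6 and 11.5 after 48H. Its log2 fold change at 48H was 0.49 ± 0.456, with an edgeR adjusted p of 0.545 and a 95% interval in fold from 0.710 to 2.78. FMO5 shares 18 exonic bases with the antisense gene CHD1L, which had 1406 to 1533 normalised counts in the libraries. Whether reads of CHD1L entered the FMO5 counts was not tested. Neither FMO gene differed detectably at this depth.

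The other FMO genes and the handling of trimethylamine, TMAO and carnitine were covered by a list of 18 genes, of which 16 were in the table and 8 were tested. None of the 8 passed in any of the 3 comparisons by edgeR or by DESeq2, and 0, 1 and 2 of them had an unadjusted edgeR p under 0.05 at 24H against CTRL, 48H against CTRL and 48H against 24H. Over all genes tested by edgeR, 0.095%, 10.4% and 7.52% passed in that order, and 7.24%, 25.8% and 22.1% had such an unadjusted p. FMO2 had 1 estimated count over all 9 libraries, and FMO1 and FMO6P had 0. SLC22A2, an organic cation transporter of the kidney, and BBOX1, the last enzyme of carnitine synthesis, also had 0. EIF2AK3, which encodes PERK, a sensor of protein folding stress to which TMAO is known to bind, had means of 1026 normalised counts in CTRL, 995 after 24H and 976 after 48H. Its log2 fold change was -0.071 at 48H with an edgeR adjusted p of 0.511.

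Among 17 other genes of organic osmolyte transport and synthesis, 11 were tested. At 24H 0 passed by edgeR, where 2 had an unadjusted p under 0.05, beside 7.24% of all genes. With DESeq2 1 passed, where 55 genes of the whole count table did. At 48H against CTRL, 1 of the 11 passed by DESeq2, where 1716 of the 29740 genes of the count table did. By edgeR 1 of the 11 passed, beside 10.4% of all genes, and it was lower, where 5.29% of all genes were. It was AKR1B1, the aldose reductase that makes sorbitol and another NFAT5 target. AKR1B1 had 1616, 1724 and 1588 normalised counts in CTRL, 1496, 1615 and 1565 after 24H, and 1412, 1344 and 1347 after 48H. Its 48H libraries lay below all others, with a log2 fold change of -0.26 ± 0.0493 (SE) and an edgeR adjusted p of 0.00486. For 48H against 24H, AKR1B1 was lower by a log2 change of -0.19, and SLC6A8, the creatine transporter gene, was higher by 0.22 with an edgeR adjusted p of 0.0198. These were the 2 of 11 that passed by edgeR, beside 7.52% of all genes. The median log2 fold change of the 11 genes at 48H against CTRL was 0.024.

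All 21 genes of cell volume control and osmotic response were tested. At 24H 0 passed by edgeR, where 1 had an unadjusted p under 0.05, beside 7.24% of all genes. With DESeq2 1 passed, where 55 genes of the whole count table did. At 48H against CTRL 1 was higher and 2 were lower, which is 3 of 21 by edgeR beside 10.4% of all genes. With DESeq2 6 of the 21 passed, where 1716 of the 29740 genes of the count table did. AQP1, a water channel of endothelium, had 467, 550 and 461 normalised counts in CTRL, 523, 492 and 483 after 24H, and 314, 276 and 353 after 48H. It fell at 48H with a log2 fold change of -0.65 ± 0.0981 (SE) and an edgeR adjusted p of 0.00134. SLC12A2, the sodium, potassium and chloride cotransporter NKCC1, went from a mean of 3897 in CTRL to 2849 at 48H, a log2 fold change of -0.45 with an edgeR adjusted p of 5.38e-05. In both genes every 48H library lay below the 6 others. HSPA4L, an HSP110 family chaperone also known as osmotic stress protein, rose from 380 to 519, a log2 fold change of 0.45 with an edgeR adjusted p of 0.00649. For 48H against 24H, 2 genes were higher, SGK1 and HSPA4L, and 3 were lower, AQP1, SLC12A2 and the chaperone gene HSPH1. In that comparison 7.52% of all genes passed and 3.76% were lower. SGK1, a kinase that responds to salt and glucocorticoids, had 2762, 2700 and 2714 normalised counts in CTRL, 2202, 2047 and 2099 after 24H, and 3039, 2763 and 3623 after 48H. It was higher at 48H than at 24H by 0.57 on the log2 scale with an edgeR adjusted p of 0.000334, while its change of -0.36 at 24H against CTRL had an edgeR adjusted p of 0.131. The median log2 fold change of the 21 genes at 48H against CTRL was 0.025, and 18 of the 21 did not pass.

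**Figure D4:**
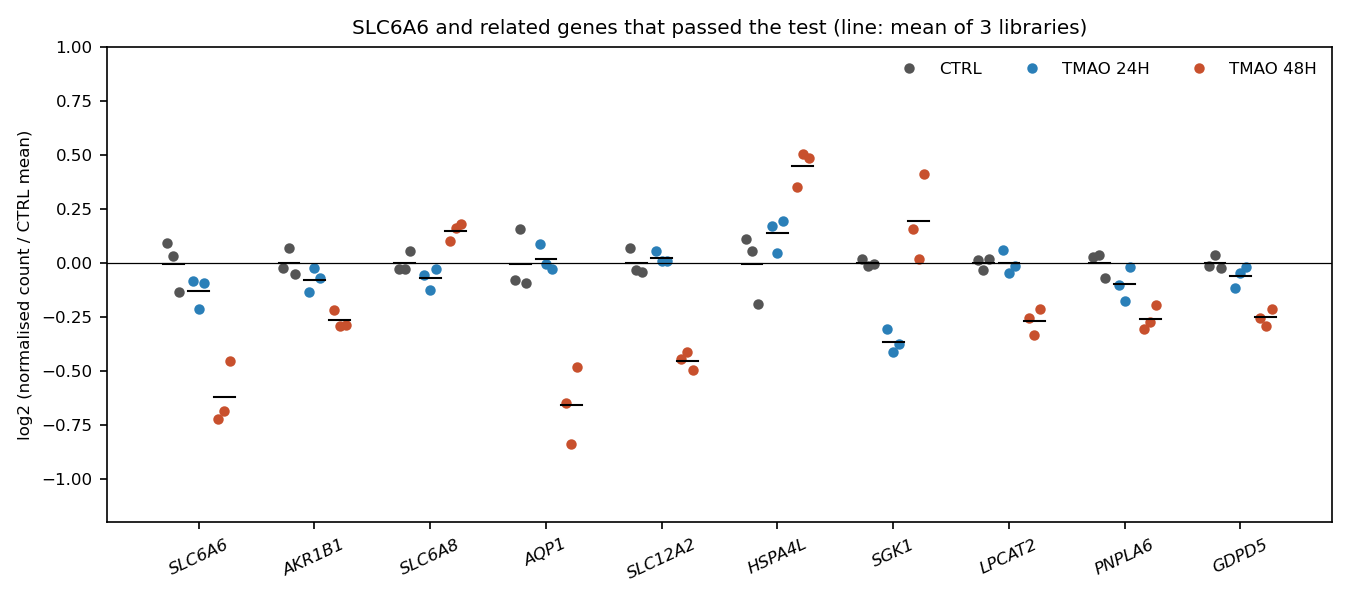
Log2 ratio of the normalised count in each library to the CTRL mean (vertical axis) for SLC6A6 and the genes of the related lists that are named for passing the test, with points for libraries and lines for the mean of 3. At 48H the points of SLC6A6, AQP1 and SLC12A2 lie lowest, HSPA4L lies above its CTRL libraries, and SGK1 dips at 24H.

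Choline uptake and phosphatidylcholine metabolism beyond the members were covered by 36 genes, of which 32 were tested. At 24H 0 passed by edgeR, where 3 had an unadjusted p under 0.05, beside 7.24% of all genes, and 0 passed by DESeq2. At 48H against CTRL 5 were lower and 0 were higher, which is 5 of 32 beside 5.29% of all genes. The list's median log2 fold change was 0.0052, and 27 of the 32 did not pass. LPCAT2, an acyltransferase that makes phosphatidylcholine and platelet-activating factor from their lyso forms, had means of 6635 in CTRL, 6636 after 24H and 5518 after 48H. Its log2 fold change at 48H was -0.27 ± 0.0435 (SE) with an edgeR adjusted p of 0.00227. PNPLA6 and GDPD5, enzymes that act in the breakdown of phosphatidylcholine to glycerophosphocholine and choline, had log2 fold changes of -0.26 and -0.25 at 48H, with edgeR adjusted p of 0.00580 and 0.00752. PTDSS2 and LPCAT1 were the remaining genes that passed, with log2 fold changes of -0.25 and -0.16, and are named after their values were seen. For 48H against 24H, LPCAT2 and GDPD5 were lower by edgeR, by log2 changes of -0.27 and -0.19, where 3.76% of all genes were lower. By DESeq2 5 of the 32 passed, where 1227 of the 29740 genes of the count table did. The 5 changes that passed by edgeR at 48H against CTRL were below 1.4-fold.

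The oxidation of choline to betaine and the methionine cycle that betaine feeds were covered by 20 genes, of which 14 were tested. None passed in any of the 3 comparisons by edgeR or by DESeq2. At 24H against CTRL, 48H against CTRL and 48H against 24H, 0, 1 and 0 of them had an unadjusted edgeR p under 0.05. The shares over all genes tested were 7.24%, 25.8% and 22.1%. The median log2 fold change at 48H against CTRL was 0.015. BHMT, which passes a methyl group of betaine to homocysteine in liver and kidney, had 0 counts in all libraries, and SLC5A7, the high-affinity choline transporter of neurons, also had 0.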

How the data were processed

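Total RNA of HMEC-1 was sequenced in 9 libraries of 3 groups, taken from the labels. Reads were trimmed with Trim Galore and run through nf-core RNAseq 3.6 by the authors, who deposited estimated counts (expected counts) per gene, not normalised. The quantifier, genome build and annotation are not given in the sources used here. The values (14% to 15.4% not whole) were rounded. In R 4.3.3, edgeR 4.0.16 was run with filterByExpr, TMM factors and a quasi-likelihood fit (glmQLFit, legacy = FALSE) of all libraries, with Benjamini-Hochberg adjustment over 14740 genes, and was tested on simulated data. Standard errors were derived from the F statistic and intervals are 95%. An exact permutation test of 3 against 3 libraries cannot go below p = 0.1. Total counts were 29160868 to 30069548 in CTRL, 32179428 to 36927373 at 24H and 25205756 to 32563494 at 48H.

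The members and lists were chosen with earlier results of these data known. Named genes were the members, up to 3 genes per related list and comparison with the largest fold change among those that passed, the 3 genes most like each member that passed, MRPS6, and genes on which a result turned, of which some items are not reported here. Transcript lengths and overlaps came from GENCODE 29, found for 89.8% of tested genes, and promoters from RefSeq. A comparison of protein sequences within the FMO and SLC6A families, planned, was not done, since protein sequences were not used here. The alternatives were DESeq2 1.42.0, other factors and filters, the older quasi-likelihood fit, a fit of the compared groups alone, a replicate block, removal of ribosomal RNA genes, GC offsets, a 1.4-fold threshold, SLC5A3 summed with MRPS6, and leaving out each library.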

Additional observations from a re-analysis of the deposited data

Results flagged for a closer look

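The SLC6A6 level differed between the 2 time-points by the direct test of 48H against 24H, with a log2 difference of -0.49 and an edgeR adjusted p of 0.000960. All 3 libraries at 48H (2131 to 2566 normalised counts) lay below all 3 at 24H (3036 to 3322).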

How the results depend on the processing

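The number of members that passed (0, 1 and 1) was the same under all alternatives run. Of 482 values of single members, 468 kept their direction and, where an adjusted p was given, their side of the threshold. DESeq2 gave no adjusted p for some low genes, among them FMO4 and FMO5 at 24H and CHDH, FMO4 and FMO5 at 48H against CTRL. SLC6A6 passed in 18 of 18 alternatives for 48H against CTRL (edgeR and DESeq2 adjusted p from 3.363e-14 to 0.00288) and in 18 of 18 for 48H against 24H (4.159e-09 to 0.00967), while it passed in 0 of 18 at 24H. The other 14 values reversed, all far from the threshold. With GC offsets these were SLC44A1 (-0.017) and PEMT (0.020) at 24H, PEMT (0.0055) at 48H and SLC5A3 (-0.013) for 48H against 24H. With 1 library left out, some values of these members lay on the other side of 0. At 24H these were SLC44A1 (range -0.050 to 0.054, also -0.012) and PEMT (-0.038 to 0.0043), at 48H NFAT5 (-0.12 to 0.11, also 0.035), and for 48H against 24H NFAT5 (-0.033 to 0.19), SLC5A3 (-0.0094 to 0.088), CHDH (-0.055 to 0.31) and FMO5 (-0.088 to 0.40, also -0.015).

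Counts over all genes moved more. At 24H, 14 genes passed, against 7 with a 1.4-fold change as well, 55 by DESeq2, 22 with the compared groups alone and 0 to 24 with 1 library left out. Without TMAO 24H replicate 2 the count was 0. At 48H, 1536 passed, against 265, 981 with the compared groups alone and 700 to 1594 with 1 library left out, the lowest without TMAO 48H replicate 2. For 48H against 24H, 1109 passed, against 251 and 558 to 1282, the lowest without TMAO 24H replicate 3. The cause was not tested. Same-numbered libraries of different groups correlated at -0.12 to 0.0908 after their group means were removed, and differently numbered ones at -0.0996 to 0.159. These ranges show no sign of pairing by number, but so few libraries cannot decide whether same-numbered ones were handled together. A fit with the replicate block gave 1, 944 and 730 genes. In that fit SLC6A6 had an edgeR adjusted p of 0.00234 for 48H against CTRL and 0.00661 for 48H against 24H. Depth limited CHDH, FMO4, FMO5 and SLC6A12, with at most 34 counts of any of them in a library.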

Other observations

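TMAO 48H replicate 3 held 67.9 normalised counts of KRT14 and 38.0 of EPCAM, genes of epidermal and other epithelial cells, where the other 8 libraries held 552 to 1067 and 202 to 290. The 9 leukocyte and epidermal markers summed to 2390 to 3620 normalised counts in CTRL, 2282 to 2694 at 24H and 946 to 3478 at 48H. Among the leukocyte genes of that list, CD68 had means of 600, 641 and 657 normalised counts in CTRL, 24H and 48H, while LYZ had 53 counts, PTPRC 8 and CD3E 0 over all libraries. Of the 5 genes of the list that were tested, 0 passed in each comparison by edgeR and by DESeq2, and 0 had an unadjusted edgeR p under 0.05. Over all genes tested, 7.24%, 25.8% and 22.1% had one at 24H against CTRL, 48H against CTRL and 48H against 24H.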
